A study of Drosophila melanogaster with 6 samples.

Results

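Developmental cell death in Drosophila melanogaster runs through a short chain of genes. Here 10 of them were followed in embryos labelled null for the forkhead factor FoxL1. The genes were chosen by name: the killers rpr (reaper), hid, grim and skl (sickle), the inhibitors Diap1 and Diap2, the caspases Dronc, Drice and Dcp-1, and the adaptor Dark. A probe set that named the gene alone was found for 6 of the 10, out of 11982 genes with such a probe set on the array. These 6 are grim, skl, Diap2, Dronc, Dcp-1 and Dark; rpr, hid, Diap1 and Drice were not analysed here. Dark had 2 probe sets of its own and each of the other measured genes had 1. Where a gene had several, the brightest over all 6 arrays stood for it.

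In flies the killer proteins carry a short motif at their amino terminus that binds inhibitor of apoptosis proteins, above all Diap1, which otherwise holds caspases in check and marks Dronc for destruction. Dronc released from Diap1 assembles with Dark into the apoptosome and cleaves the effector caspases Drice and Dcp-1, which dismantle the cell. In the embryo the killer genes are known to be switched on in cells that are about to die, whereas caspases and their adaptor are broadly present, in part from RNA that the mother loads into the egg.

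RNA levels were read on Affymetrix Drosophila Genome 2.0 arrays, 3 from whole foxL1 null embryos and 3 from Oregon R wild-type embryos, described as independent biological samples. The null genotype is written foxLCr/foxL1del, with no account of what either allele removes, and the growth protocol gives this genotype for the flies whose embryos were collected. All samples carry the label of stages 11 to 15, while the protocol gives 8 h of collection and 11 h of ageing for both genotypes. Each genotype is a line of its own, so genotype and line background cannot be told apart. All values are log2 signals after robust multi-array averaging (RMA). The array medians still differed, at 4.87 to 4.94 for null arrays and 4.96 to 5.08 for wild-type arrays. Differences are null minus wild type.

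FoxL1 itself read 4.23, 4.35 and 3.37 on null arrays 1 to 3, against 4.85, 5.12 and 5.01 on wild-type arrays 1 to 3, with means of 3.98 ± 0.54 in null embryos and 5.00 ± 0.14 in the wild type (SD, n = 3 each) and a log2 difference of -1.01 (SE 0.25, limma adjusted p = 0.0489). Leaving out null array 1 or any of the wild-type arrays ended this call, with limma adjusted p of 0.0799 to 0.155, as did quantile normalization (0.0761) and centring (0.0641). Null array 3 stood apart in the control probe sets: its 3' minus 5' difference for actin, a sign of RNA quality, was 0.20 on the log2 scale, against 0.67 to 0.82 on the other 5 arrays. For eIF-4a it was also the lowest, at 0.71 against 0.88 to 0.93, but for GAPDH the highest, at 0.62 against 0.43 to 0.53. The controls thus did not point one way, and they do not show worse RNA on this array. Among all genes 1227 passed limma's adjusted threshold of 0.05, which is 10.2%, with 748 higher (6.24%) and 479 lower (4.00%). With the replicate numbers as a block 2038 genes passed, or 17.0%. Neural markers, like the other lists here, were chosen with earlier results of these data known. Their mean level was 7.96 to 8.41 on null arrays and 8.35 to 8.54 on wild-type arrays. In limma 0 of 8 passed, with 2 at an unadjusted p under 0.05, a threshold that 27.1% of all genes met. Of the 8 differences 7 were below 0, with a median of -0.23, beside -0.07 over all genes.

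Of the 6 measured cell death genes, Dronc alone passed the threshold in these data, and it was higher in null embryos. The other 5 did not pass. Their differences ran from -0.04 to 0.13 on the log2 scale, with adjusted p of 0.619 to 0.997. That is 1 of 6 genes called higher and 0 lower, beside 6.24% and 4.00% of all genes, so the count alone is no result about these genes. The median difference of the 6 was 0.04, beside -0.07 over all genes.

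**Figure D1:**
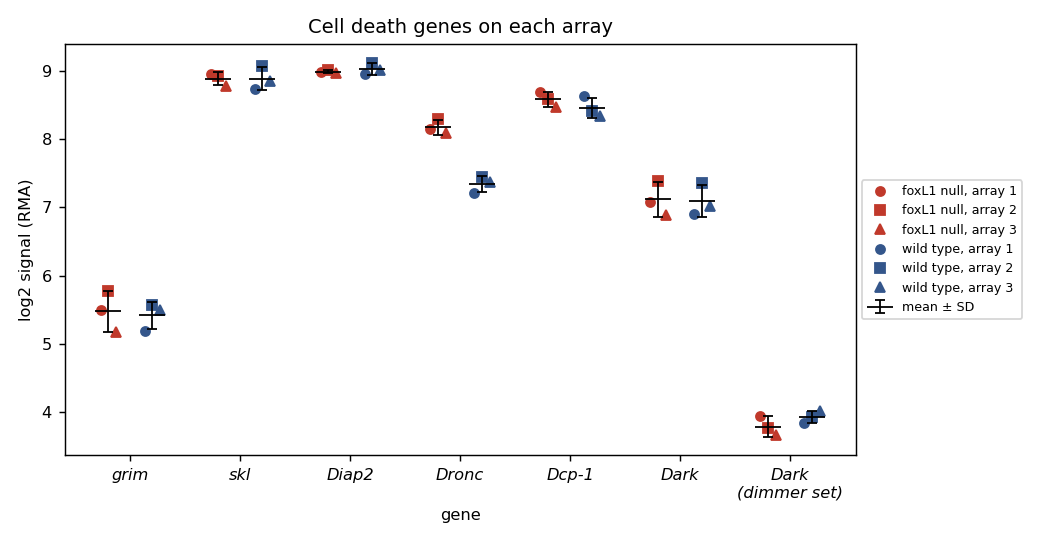
Log2 RMA signal (vertical axis) of each measured cell death gene on every array, foxL1 null arrays in red at the left of each pair and wild-type arrays in blue at the right, with the mean and SD of 3 arrays in black. Dronc is the gene whose genotypes separate; Dark is shown with its brighter and its dimmer probe set.

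Among the killers, grim and skl had a probe set, both on chromosome arm 3L in the cluster that also holds rpr and hid. The grim signal was 5.50, 5.77 and 5.17 on null arrays 1 to 3, against 5.20, 5.57 and 5.49 on wild-type arrays 1 to 3. The genotypes overlapped throughout, and the spread within each of them was wider than the distance between their means. The limma difference was 0.06 (SE 0.18, adjusted p = 0.887), with a 95% interval of -0.35 to 0.47, which in folds runs from 0.787 to 1.38. Grim blocks Diap1 in the same way as Reaper, and of the genes measured here its interval was the widest.

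The sickle gene, skl, whose product shares the inhibitor-binding motif, read 8.95, 8.92 and 8.78 on null arrays 1 to 3, against 8.73, 9.06 and 8.85 on wild-type arrays 1 to 3. The null values lay inside the wild-type range, and the means were 8.88 in both genotypes. The difference was 0.001 (SE 0.12, limma adjusted p = 0.997), with a 95% interval of -0.28 to 0.28. Between hid and skl lie 4 further genes with a probe set, by their order in RefSeq's Release 6 plus ISO1 MT, CG7320, CheA75a, CG5103 and CG13700, named after their values were seen. They differed by -0.09 to 0.09, with limma adjusted p of 0.775 to 0.923, so no measured gene of that stretch passed.

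Diap2, an inhibitor of apoptosis protein and ubiquitin ligase that also acts in immune signalling, lies on chromosome arm 2R. It read 8.98, 9.01 and 8.96 on null arrays 1 to 3, against 8.95, 9.12 and 9.01 on wild-type arrays 1 to 3. All 3 null values fell within the wild-type range. The difference of -0.04 (SE 0.10, limma adjusted p = 0.861) became 0.08 with each array centred on its median, and its 95% interval of -0.27 to 0.18 was the narrowest of the members. In folds that interval runs from 0.831 to 1.14.

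Dronc, the initiator caspase and the fly counterpart of mammalian caspase-9, lies on 3L and was higher in null embryos by 1.78-fold. Its log2 signal was 8.14, 8.29 and 8.08 on null arrays 1 to 3, against 7.21, 7.44 and 7.37 on wild-type arrays 1 to 3. Every null array lay above every wild-type array, with 0.64 between the lowest null and the highest wild-type value; among all genes 31.9% had genotypes that do not overlap. The means were 8.17 ± 0.10 in null embryos and 7.34 ± 0.12 in the wild type (SD, n = 3 each). The limma difference was 0.83 (SE 0.11, adjusted p = 0.00493), with a 95% interval of 0.57 to 1.09 and folds of 1.49 to 2.13. An exact permutation test of the 6 values gave a 2-sided p of 0.1, the smallest that 3 against 3 arrays can give. In whole embryos, more cells with Dronc RNA and more of it per cell cannot be told apart.

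The Dronc call was not lost under any of the 14 other settings tried. Its difference ran from 0.77 without wild-type array 1 to 0.95 with each array centred on its median, and limma's adjusted p from 0.00147 with array weights to 0.0281 without wild-type array 3. The block, the trended prior and the filters left the difference at 0.83 by construction, as did averaging its 1 probe set. Only adjusted p could move under these settings. Without null array 3, the array with the low actin value, the difference was 0.88 (SE 0.11, limma adjusted p = 0.0105). Centring shifted the median of all genes by 0.12, and Dronc lay 0.90 above that median on either scale. Among the 748 genes that rose, Dronc was number 295 by size, and it was number 286 of 11982 by p.

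**Figure D2:**
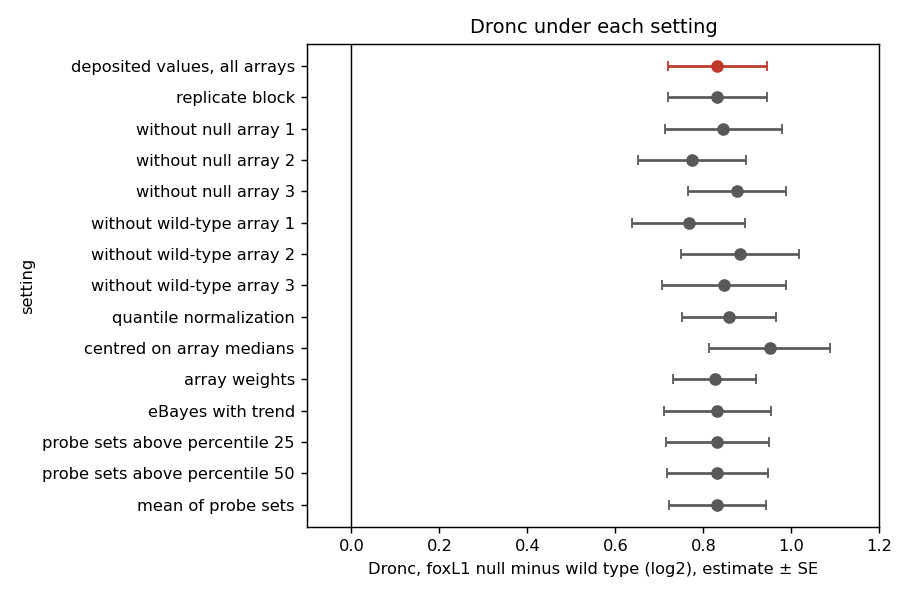
Log2 difference of Dronc, foxL1 null minus wild type (horizontal axis), with limma's standard error, for the deposited values in red and for each of the 14 other settings in grey. Every estimate lies between 0.77 and 0.95.

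Dcp-1, an effector caspase on 2R with a known part in germline death, read 8.69, 8.58 and 8.47 on null arrays 1 to 3, against 8.62, 8.41 and 8.33 on wild-type arrays 1 to 3. On each number the null array was the higher of the pair, but the genotypes overlapped. The difference was 0.13 (SE 0.12, limma adjusted p = 0.619), with a 95% interval of -0.15 to 0.40. With the replicate numbers as a block the adjusted p was 0.539.

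Dark, the scaffold of the apoptosome and the fly relative of Apaf-1, also lies on 2R. Its brighter probe set read 7.08, 7.39 and 6.89 on null arrays 1 to 3, against 6.90, 7.36 and 7.02 on wild-type arrays 1 to 3. These ranges nearly coincided, and the difference was 0.03 (SE 0.17, limma adjusted p = 0.955; 95% interval -0.37 to 0.42). The dimmer probe set had 3.95, 3.77 and 3.66 on null arrays 1 to 3, against 3.84, 3.94 and 4.03 on wild-type arrays 1 to 3, while the 25th percentile of the arrays lay at 2.97 to 3.01. It differed by -0.14 (SE 0.12, limma adjusted p = 0.557). The 2 probe sets of Dark thus had opposite signs, neither of them past the threshold, and their mean differed by -0.06 (adjusted p = 0.843).

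Set side by side, the lower bound of the Dronc interval, 0.57, lay above the upper bound of each of the other 5 genes, the highest of which was 0.47, that of grim. A test of the difference between members was not run. For the 5 genes that did not pass, the 95% intervals reach from 0.773 to 1.38 in folds, so a change of 2-fold lies outside each of them on this array, whereas changes the size of those bounds lie inside. RMA compresses differences of weakly expressed genes, which bears most on grim and on the dimmer Dark probe set.

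**Figure D3:**
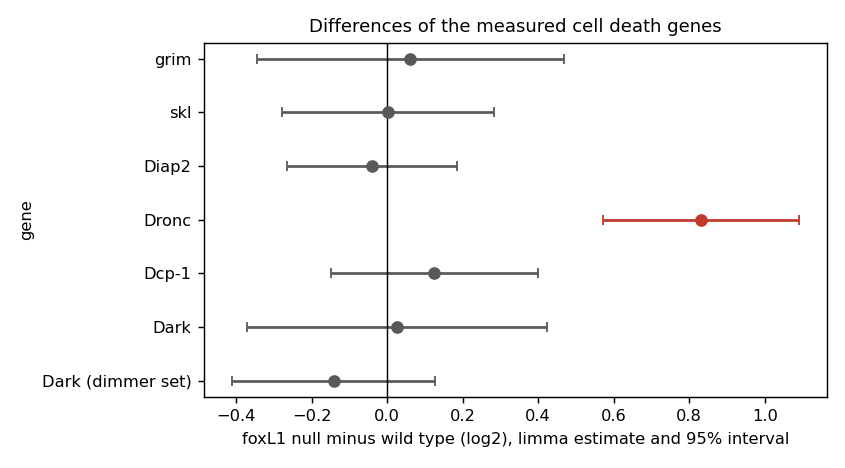
Limma's log2 difference, foxL1 null minus wild type, with its 95% interval (horizontal axis) for each measured cell death gene, with Dark shown for both of its probe sets. The interval of Dronc, in red, runs from 0.57 to 1.09; all other intervals, in grey, include 0.

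Within each genotype most of the genes varied together from array to array. In 5 of the 6, wild-type array 2 was the highest and wild-type array 1 the lowest of the wild type, an order that 21.7% of all genes shared. All 6 were lowest on null array 3 among the null arrays, as were 49.1% of all genes. The full order of both genotypes, with null array 2 and wild-type array 2 on top and null array 3 and wild-type array 1 at the bottom, was that of grim, Diap2, Dronc and Dark, 4 of 6 genes, beside 9.16% of all genes. Dcp-1 ran otherwise, with its highest value on array 1 of either genotype.

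Deviations from the genotype means put numbers on this. Over the 6 arrays, Pearson's r of the deviations was 0.94 between grim and Dronc, 0.93 between Dronc and Dark, 0.91 between grim and Dark and 0.94 between skl and Diap2. Over the 10 pairs that leave out Dcp-1 it ran from 0.69 to 0.94, and over the 5 pairs with Dcp-1 from -0.40 to -0.10. Dcp-1 was set apart after its values were seen. No such r was computed for pairs among all genes, so these values are not known to be particular to the cell death genes. The points share the same arrays, and deviations within a genotype sum to 0, so these values describe the libraries and were given no test. The values of grim, skl, Diap2, Dronc and Dark thus varied together from array to array, while a genotype difference past the threshold was found for Dronc.

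**Figure D4:**
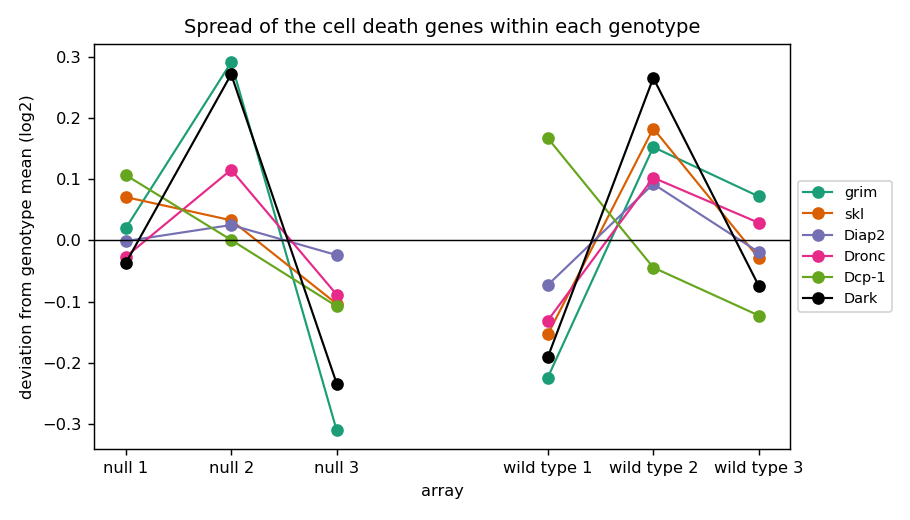
Deviation of each gene from its genotype mean (log2, vertical axis) on every array, foxL1 null arrays at the left and wild-type arrays at the right, with a line for each of the 6 measured cell death genes. Among the wild-type arrays, all lines but that of Dcp-1 are highest on array 2 and lowest on array 1. Among the null arrays, all 6 are lowest on array 3.

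The genes whose level followed Dronc most closely over the 6 arrays were lncRNA:CR43904, Nin and CG6891, each with a Pearson's r of 0.998 or above, as a description without a test. Nin, which encodes the centrosomal protein Ninein, was higher by 1.09 (SE 0.13, limma adjusted p = 0.00308) and CG6891 by 0.98 (SE 0.12, adjusted p = 0.00391). The signal of lncRNA:CR43904 was near the floor, at 2.53 to 2.58 on null arrays and 2.27 to 2.35 on wild-type arrays. With 11982 genes measured, 439 reached an r of 0.95 with Dronc, a lower bar than the r of the 3 named genes. This r was taken over all 6 arrays, so it includes the difference between the 2 genotypes. For Dcp-1 the closest genes were CG7006 at 0.991, Smu1 at 0.959 and CG5388 at 0.958, and 4 genes reached 0.95.

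The nearest measured genes of Dronc on 3L, 3 on each side, were taken after the values were seen. They are nudE, bma and CG6685 on one side and CG6674, dpr6 and CG14160 on the other. Of these, dpr6, a cell surface protein of the immunoglobulin family, passed, with 5.62, 5.62 and 5.45 on null arrays 1 to 3, against 4.62, 4.72 and 4.63 on wild-type arrays 1 to 3. Its difference was 0.90 (SE 0.10, limma adjusted p = 0.00275), but its other probe sets were at 0.25 (adjusted p = 0.406) and 0.04 (adjusted p = 0.888). The other 5 neighbours differed by -0.33 to 0.54, with limma adjusted p of 0.0903 for CG6685 and more for the rest. Over all genes 10.2% passed. Neighbours of Dark, Dcp-1 and Diap2 were taken in the same way. Rrp4 beside Dcp-1 passed as lower (-0.58, limma adjusted p = 0.0398) and Rif1 beside Diap2 as higher (0.49, adjusted p = 0.0337), though neither member passed. No neighbour of Dark passed.

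Maternal and blastoderm transcripts moved in the same comparison as Dronc. Of 10 measured maternal markers 6 were higher, 0 lower and 4 did not pass, and their mean level was 7.40 to 7.79 on null arrays and 6.57 to 6.85 on wild-type arrays. Among them, pum, which encodes the translational repressor Pumilio, differed by 0.83 (SE 0.15, limma adjusted p = 0.0179), but its dimmer probe set by 0.10 (adjusted p = 0.862), while tor stood at 2.48. The markers nanos, osk, png and gnu, named here after their values were seen, did not pass, with differences of -0.73 to -0.41. Of 7 blastoderm markers 4 were lower and 0 higher, with a mean level of 5.26 to 5.99 on null arrays and 6.80 to 7.11 on wild-type arrays. Their part in the Dronc difference was not tested.

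Beyond the 10 genes, 74 genes of the wider death machinery were followed in 6 lists, and 59 of them were measured. In all, 8 passed, 3 higher and 5 lower, which is 13.6% beside 10.2% of all genes; with the replicate numbers as a block 10 passed. Their median difference was -0.12, beside -0.07 over all genes. The count fell to 2, 3 and 3 without wild-type array 1, 2 or 3, to 4 without null array 1, and to 5 with each array centred on its median. It rose to 11 with array weights.

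The other caspases and caspase regulators gave the greatest change of any gene in these lists, that of Drep1. Drep1, the fly counterpart of the inhibitor ICAD that restrains the caspase-activated nuclease, read 8.24, 8.09 and 7.97 on null arrays 1 to 3, against 6.05, 5.80 and 6.36 on wild-type arrays 1 to 3. The genotypes lay far apart, by 4.08-fold (log2 difference 2.03, SE 0.16, limma adjusted p = 0.000894), and the call was not lost under any of its 13 other settings. Drep4, the nuclease itself, differed by -0.04. Of 11 measured genes in the list 1 was higher, 0 lower and 10 did not pass, among them the caspase genes Strica at 0.28 and Dredd at 0.26 (limma adjusted p = 0.225 and 0.241). Drep4, Strica and Dredd were named after their values were seen. The list's median was -0.04.

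In the Eiger and JNK list, 2 of 9 measured genes were lower, 1 higher and 6 did not pass, with a median of -0.24. Eiger, the fly tumour necrosis factor, is encoded by egr, which read 7.62, 7.49 and 7.36 on null arrays 1 to 3, against 8.17, 8.15 and 8.24 on wild-type arrays 1 to 3. It was lower in null embryos (log2 difference -0.70, SE 0.11, limma adjusted p = 0.00826), and its dimmer probe set passed too, at -0.57 (adjusted p = 0.0414). Without wild-type array 3 the egr call was lost (limma adjusted p = 0.05004). Grindelwald, a receptor for Eiger, was also lower: grnd differed by -0.63 (SE 0.13, adjusted p = 0.0272). Traf6, an adaptor between such receptors and JNK, was higher by 0.54 (SE 0.11, adjusted p = 0.0299). The kinase gene bsk, which encodes JNK, and its target puc, both named after their values were seen, stood at -0.10 and -0.26 and did not pass.

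The calls of grnd and Traf6 were less firm than that of egr. For grnd the call was lost without null array 1 or 3 or wild-type array 1 or 2 (limma adjusted p of 0.0569 to 0.109), after another quantile normalization (0.0787) and after centring (0.0777). For Traf6 it was lost without null array 1 or 2 or any wild-type array, with adjusted p of up to 0.119.

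Of 15 measured autophagy genes, which serve a second route of developmental cell death, 1 was higher, 2 lower and 12 did not pass, with a median of -0.09. Atg16, part of the conjugation machinery of the autophagosome, was higher by 0.62 (SE 0.10, limma adjusted p = 0.00928), a call lost without wild-type array 1 (0.0510). Atg13, a partner of the Atg1 kinase, differed by -0.75 (SE 0.17, adjusted p = 0.0372), and the membrane protein gene Atg9 by -0.54 (SE 0.12, adjusted p = 0.0403). Atg13 lost its call without wild-type array 1, 2 or 3, and Atg9 without any wild-type array or null array 1 or 3, with limma adjusted p of up to 0.147 and 0.136. Centring ended both (0.0629 and 0.140).

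Among upstream regulators of the killer genes, 1 of 11 measured genes was lower, 0 higher and 10 did not pass, with a median of -0.17. The epidermal growth factor receptor gene Egfr, whose signalling is known to protect fly cells from Hid, differed by -0.59 (SE 0.14, limma adjusted p = 0.0496). It lost the call without null array 1 or 3 or any wild-type array, with adjusted p of up to 0.151, after centring (0.137) and with a trended prior (0.0600). The damage response gene p53, which can switch on rpr and was named after its value was seen, stood at 0.23 (adjusted p = 0.561).

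No gene of the Bcl-2 and mitochondrial list passed in limma, 0 of 4, with 2 at an unadjusted p under 0.05, a threshold that 27.1% of all genes met. These were Debcl, a fly Bcl-2 family member, at -0.42 (SE 0.11, limma adjusted p = 0.0596), and the mitochondrial fission gene Drp1 at -0.29 (SE 0.11, adjusted p = 0.155). Debcl had 6.75, 6.55 and 6.52 on null arrays 1 to 3, against 6.94, 7.06 and 7.06 on wild-type arrays 1 to 3, without overlap, and it passed when probe sets under the 50th percentile of signal were left out (limma adjusted p = 0.0443).

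Genes for the engulfment of dead cells did not pass either, 0 of 9 in limma, with 3 at an unadjusted p under 0.05 and a median of -0.16. Over all genes 27.1% had an unadjusted p under 0.05. The adaptor gene ced-6 stood at 0.51 (SE 0.17, limma adjusted p = 0.128) and the kinase gene Shark, which acts with the engulfment receptor Draper, at -0.43 (SE 0.17, adjusted p = 0.198). Without null array 3, and with array weights, ced-6 passed (adjusted p = 0.0315 and 0.0289). The receptor genes drpr and crq, named after their values were seen, were at -0.39 and -0.44 and did not pass. Hemocytes, the phagocytes of the embryo, were followed by 11 markers, of which 0 passed in limma. An unadjusted p under 0.05 was found for 4 of the 11, beside the 27.1% of all genes. Their mean level was 6.87 to 6.95 on null arrays and 7.06 to 7.12 on wild-type arrays. The array medians were also lower on null arrays, at 4.87 to 4.94 against 4.96 to 5.08. The part of the hemocyte level in these differences was not tested. The marker ush, named after its value was seen, counts in both the hemocyte and the amnioserosa list, and crq in both the engulfment and the hemocyte list. Of 6 markers of the amnioserosa, a tissue that dies during embryogenesis, 4 were lower, 0 higher and 2 did not pass. Over all genes 4.00% were called lower. Those that passed were Doc1, Doc2, Doc3 and zen. The others were ush at -0.51 (limma adjusted p = 0.0795) and peb at 0.06 (adjusted p = 0.882), with peb named after its value was seen. The mean level of the list was 6.54 to 6.74 on null arrays and 7.13 to 7.41 on wild-type arrays. The part of amnioserosa cells in these differences was not tested. Of 6 late epidermal markers 0 passed in limma and 0 had an unadjusted p under 0.05.

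**Figure D5:**
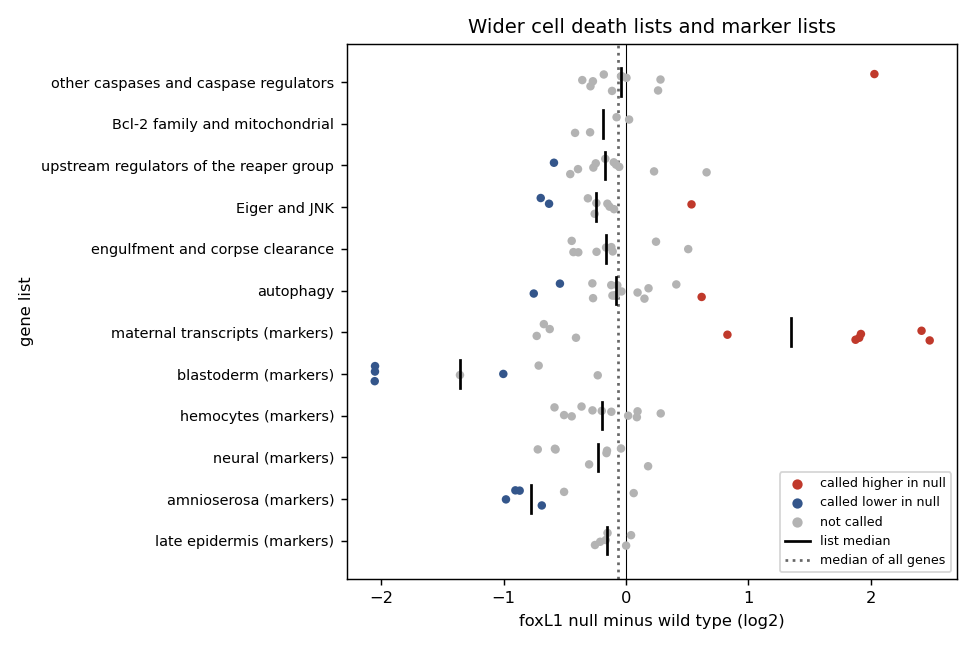
Log2 difference, foxL1 null minus wild type (horizontal axis), of each measured gene in the 6 wider cell death lists and the 6 marker lists, with genes that passed limma's adjusted threshold in red (higher) or blue (lower), a black bar at each list's median and a dotted line at the median of all genes. Drep1 at 2.03 stands apart from the rest of its list.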

How the data were processed

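The authors deposited log2 expression values per probe set. Partek and RMA (robust multi-array averaging) are listed, with no version, in the submitters' processing notes. Since the labels name no genome build, RefSeq's table served for names, chromosome arms and gene order, and no coordinates are printed. From 18952 probe sets 183 controls were left out, and 18769 were tested. A gene of their own was named for 13647, several genes for 402, and 4720 stay unnamed; 13544 symbols were updated through a RefSeq table and 103 kept. The brightest probe set stood for each of 11982 genes.

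Differences were fitted with limma 3.58.1 in R 4.3.3, without covariates, with Benjamini-Hochberg adjustment over the 18769 probe sets (2-sided, threshold 0.05). The fit was tested on simulated data. Genes and lists were chosen with earlier results of these data known, and no list was given a test of its own. The rule names all members, each gene of the wider cell death lists past the threshold or otherwise the 2 with the smallest p, and the 3 genes most like the 2 members with the smallest p; marker genes past the threshold may be named, and exceptions are marked.

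Replicate numbers come from the sample titles. Deviations of same-numbered arrays correlated at 0.108, 0.544 and 0.224, each above 0.1. That met the bar set for pairing, from the data alone. Deviations of differently numbered arrays were not correlated, so these values do not show that the arrays were paired. The fit stayed without a block, and the blocked fit is an alternative. No 2 arrays shared identical values at more than 0.0852% of probe sets. The number of arrays limits the precision. Alternatives were the block, each array left out, quantile normalization, centring, array weights, a trended prior, filters at the 25th and 50th percentiles and the mean of a gene's probe sets.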

Additional observations from a re-analysis of the deposited data

How the results depend on the processing

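Under the 14 alternatives 1 member, Dronc, passed each time, with or without the replicate block (0.83, limma adjusted p = 0.00288), and no other member passed. The probe sets called moved from 1472 to 2441 with the replicate block and 2460 with array weights, and ran from 663 to 1513 with 1 array left out. The wider list count of 8 ran from 2 to 8 with 1 array left out, and was 5 with centring. It rose to 10 with the replicate block and with the 50th percentile filter, and to 11 with array weights. The block changed no call of a gene named by the rule in the wider lists. Among the members that did not pass, Dcp-1 kept its sign under all 14 alternatives (0.06 to 0.24), while those of the other 4 changed: with 1 array left out grim ran from -0.0842 to 0.22, skl from -0.0754 to 0.0929, Diap2 from -0.0773 to 0.00533 and Dark from -0.11 to 0.16. Diap2 was at 0.0778 with centring and Dark at -0.0578 with the mean of its probe sets. The cause was not tested. The block, the filters and a trended prior could not change the member values, so no sign could change there. Nor could the mean of probe sets change a member with 1 probe set. No detection calls were used, so a level near the floor is not known to be above background.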
